A study of Homo sapiens with 12 samples.

Results

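The report concerns the places on RNA where the crosslinking maps of TRMT10A and FTO meet: FTO clusters that shared at least 1 base, on the same strand, with a TRMT10A site. The ribosomal DNA array on chromosome 21 and genes with the symbols of small nuclear, small nucleolar, Cajal body and ribosomal RNAs were left out. By position, 5 of the members still lay on small RNA genes under the names of host genes, all of them transfer RNA genes, which are described separately. The rule kept 672 shared clusters of 8633 FTO clusters outside these loci (7.78%), where the whole list has 9581 distinct clusters. The clusters met 669 of the 5603 TRMT10A sites outside the array (11.9%), and the whole list has 5650 distinct sites. They lay in 488 of the 3332 genes with an FTO cluster (14.6%). The members were thus chosen by the overlap of the deposited positions, so these counts and the scores below are descriptions and carry no test.

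All libraries came from HEK293T, a transformed cell line derived from human embryonic kidney. Binding was mapped by CLIP-seq, in which ultraviolet light crosslinks a protein to RNA and the bound fragments are sequenced. There were 3 libraries of cells overexpressing TRMT10A, deposited as 1 pooled site list, and 1 library of cells overexpressing FTO. Both used RNase T1 and anti-Flag beads, so the maps are of overexpressed proteins and not of the endogenous ones, and no CLIP library of unmodified cells was analysed here. The study also compared m6A (N6-methyladenosine) between cells treated with TRMT10A siRNA (siTRMT10A) and control siRNA (siCtrl), with 2 pulldown and 2 input libraries each. The deposited lists hold no values per library and no read totals, so the depth behind each value is unknown.

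TRMT10A is a methyltransferase that methylates a guanosine between the acceptor stem and the D arm of transfer RNAs. FTO is a dioxygenase that removes the methyl group from m6A and related marks. m6A is the most abundant internal mark of messenger RNA and is typically found near stop codons and in 3′ untranslated regions (3′ UTRs), within a motif whose core is GGAC.

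Sequence could be read only where a cluster reached the window of RefSeq gene starts (GRCh38.p14, from 250 bases before to 50 bases after each start). Bases of 6 shared clusters are used here. The 5 whose bases include part of the TRMT10A site are printed to show how the narrow site lies in the wider FTO cluster. Each runs 5′ to 3′ on the transcript strand, in lower case, with the bases of the TRMT10A site in capitals.
HSP90AB1, chr6:44247114-44247134, plus strand, 5′ UTR: ccggcgcagtgttgggaCTGT
PKM, chr15:72231149-72231173, minus strand, 5′ UTR: gccgtggctccggaTctcttcgtct
NPM1, chr5:171387887-171387898, plus strand, 5′ UTR: TGGAGCAgcgtt
QARS1, chr3:49104708-49104723, minus strand, coding exon: tagacTCCCTgtcgct
ATP5MG, chr11:118401624-118401653, plus strand, region not given: tcagccggcggttcggggcgacggactCTc
The motif GGACT (searched on the transcript strand, its first letters being the core GGAC) was present in the bases of HSP90AB1 and ATP5MG. In HSP90AB1 the TRMT10A site began at the C of that GGACT, and in ATP5MG it began directly after it. The same window of all 35116 RefSeq gene starts held GGACT in 1.81% of genes for the HSP90AB1 window of 21 bases and in 2.82% for the ATP5MG window of 30 bases. The PKM and NPM1 bases held no GGAC, and the QARS1 bases held AGACT, which 1.02% of gene starts held in the same window. In the sixth cluster, in PHPT1, the core GGAC was present and the site lay past the window. These few stretches describe gene starts only.

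The shared clusters lay mainly in coding sequence. Per the region column of the FTO list, 454 of 672 were in coding exons (67.6%, 95% Wilson interval 63.9 to 71.0), against 53.8% of the 7961 other FTO clusters. In 3′ UTRs the order was the other way: 86 shared clusters (12.8%, 10.5 to 15.5) against 27.6% of the others. Intervals cover counting error only, and clusters of 1 gene are not independent. A further 80 shared clusters were intronic (11.9%, against 8.72%), 13 were in 5′ UTRs (1.94%, against 1.38%) and 15 in exons of noncoding transcripts (2.23%, against 6.46%). The 13 include 4 of MTRNR2L2 and 1 each of MTRNR2L1 and MTRNR2L3, which are nuclear copies of mitochondrial ribosomal RNA. Of the long noncoding RNAs, XIST had 145 FTO clusters with 1 shared and MALAT1 80 with 4 shared, so single RNAs can weigh on the noncoding share. For 24 the list gave no region, and the TRMT10A list put 17 of these in exons.

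**Figure D1:**
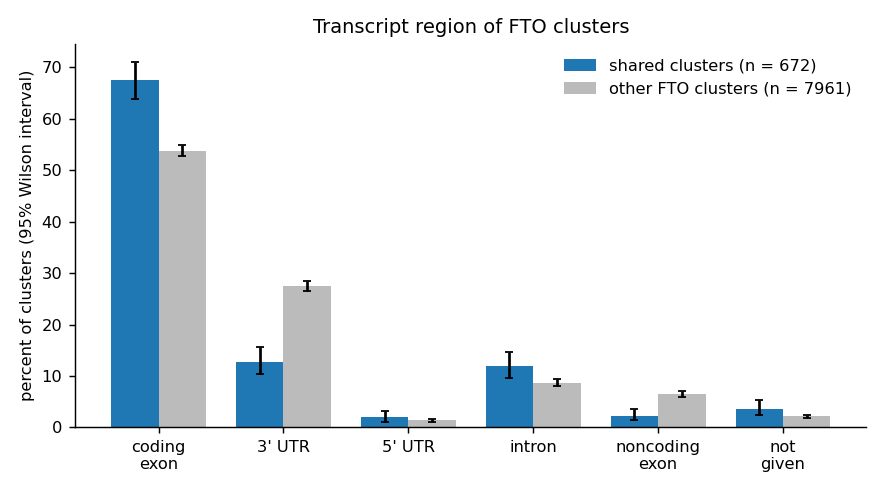
Percent of FTO clusters in each transcript region (vertical axis) for the 672 shared clusters (blue) and the 7961 other FTO clusters (grey), with 95% Wilson intervals as bars. Coding exons hold 67.6% of the shared clusters and 53.8% of the others, and 3′ UTRs hold 12.8% and 27.6%.

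The contrast had the same direction within genes that carried sites of both proteins, where 67.7% of 671 shared clusters and 55.3% of 4590 other clusters were in coding exons. The corresponding 3′ UTR shares were 12.7% and 27.0%. It also had the same direction among clusters of 2 to 4 conversion events, with 73.1% against 55.4% in coding exons and 13.5% against 29.3% in 3′ UTRs. The order in introns was reversed among those clusters, with 6.29% of shared and 8.18% of other clusters. The TRMT10A list annotates its own sites, with exon and 3′ UTR classes: 69.1% of the sites at shared clusters were exonic and 10.9% in 3′ UTRs, where 62.5% and 14.1% of all TRMT10A sites outside the array were. The 2 annotations disagreed for some members. Of the 86 shared clusters that the FTO list puts in 3′ UTRs, the TRMT10A list puts 71 there and 8 in exons, including those of GNAS, which encodes a stimulatory G protein alpha subunit. Read by region, 9.59% of the coding exon clusters of FTO were shared, 3.77% of those in 3′ UTRs, 10.6% of those in 5′ UTRs and 10.3% of those in introns. The 5′ UTR value includes the MTRNR2L clusters named above.

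Within a cluster, the TRMT10A site was a short segment that leaned to the 5′ side but was found along the whole cluster. TRMT10A sites at shared clusters had a median width of 3 bases and the FTO clusters one of 33 bases, with 29 for other FTO clusters. The middle of the site lay a median of 12.5 bases downstream of the 5′ end of the cluster (quartiles 4.5 and 20.5). Of 673 pairs, 61.7% (57.9 to 65.3) had the site nearer the 5′ than the 3′ end of the cluster, 58.9% on the plus strand and 64.1% on the minus strand. With each cluster cut into 5 equal parts from 5′ to 3′, the sites numbered 166, 153, 116, 89 and 92, with 34 before the first base and 23 past the last. The FTO list does not state whether its starts count from 0 or 1, which moves this position by at most a base.

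TRMT10A sites also gathered just outside FTO clusters. Over all FTO clusters, the number of site and cluster pairs per 10 bases was highest at 245 in the first 10 bases of the cluster. It was 216 in the 10 bases before it and 218 in the 10 bases after those first ones. Without intronic clusters the highest count was 198, in the 10 bases before the cluster, with 197 in each of the next pair of bins, so the profile had no separate peak inside the cluster. Between 100 and 200 bases from the start, on either side, it was 18 to 39. A further 572 clusters had a site 1 to 20 bases away and none within. Their median of 3 conversion events and the median height of 23 of their sites equalled the medians of the shared clusters, so the 1-base rule has no gap in score at its edge. The 146 shared clusters met only by sites that reached their first or last base had the same medians, 3 events and a height of 23.

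**Figure D2:**
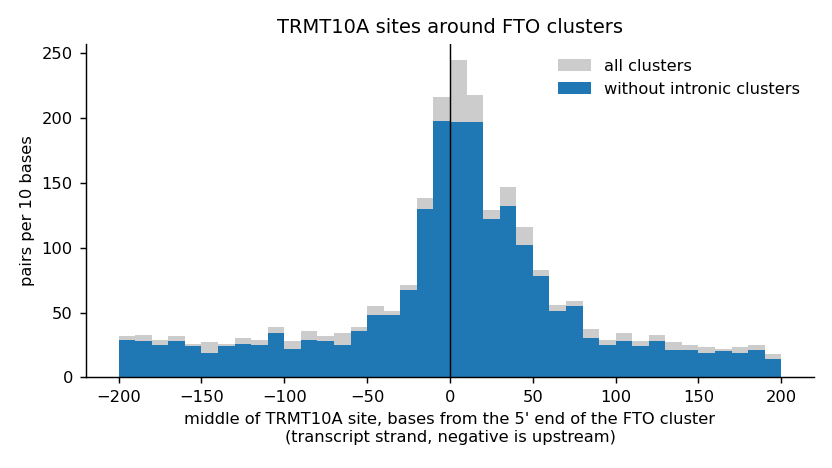
Number of pairs of an FTO cluster and a TRMT10A site per 10 bases (vertical axis) by the distance of the middle of the site from the 5′ end of the cluster, in bases along the transcript (horizontal axis), for all clusters (grey) and without intronic clusters (blue). Over all clusters the count is highest at 245 in the first 10 bases and is 18 to 39 beyond 100 bases, and without intronic clusters it is highest at 198 just before the cluster.

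The strength of a site was read from the authors' own scores: the peak height in the TRMT10A list and the count of conversion events in the FTO list, which ranks clusters only within each list. Shared clusters had a median of 3 conversion events (range 2 to 4320) and other clusters a median of 2. TRMT10A sites at shared clusters had a median height of 23 (range 16 to 123) and other sites 19. Of TRMT10A sites with a height of 16 to 19, 7.26% met a shared cluster, and of the 107 sites with a height of 60 or more, 47.7% did (38.5 to 57.0). For FTO, the shared part was 5.43% of clusters with 2 events, 21.02% of those with 10 to 19 and 13.2% of those with 20 or more, with intervals that overlap. The share thus rose with each step in TRMT10A height, while for FTO it was higher at 10 or more events than at 2 or 3, with no order between the highest steps. Over the 592 shared clusters outside introns, the scores had a Spearman correlation of 0.28. RNA levels were not analysed here, because the lists hold no values of the input libraries, so their part in the sharing was not tested.

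**Figure D3:**
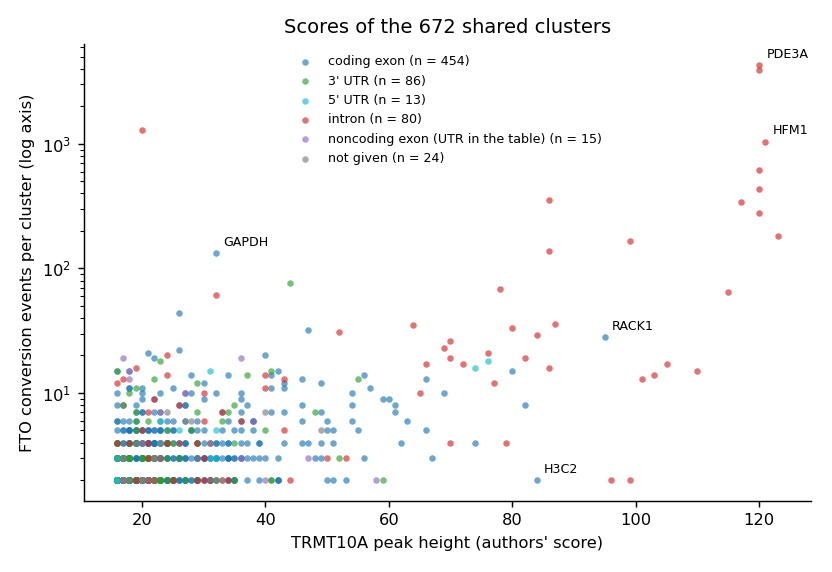
TRMT10A peak height (horizontal axis) against FTO conversion events on a log axis (vertical axis) for the 672 shared clusters, coloured by transcript region. Outside introns RACK1 is highest in peak height at 95 and GAPDH in events at 132, while the intronic PDE3A cluster reaches 4320 events.

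Among the highest TRMT10A sites outside introns, messenger RNAs of ribosomal, histone, actin and metabolic proteins led. RACK1, a protein of the small ribosomal subunit that scaffolds signalling kinases, had a site of height 95 in a coding exon cluster with 28 conversion events (chr5:181239076-181239114, minus strand), and was the one gene among the 10 leading genes on both scores. The histone messenger RNAs H3C2 and H1-2, encoding a core H3 and a linker histone, had heights of 84 and 74 with only 2 and 4 events. H2AZ1, encoding the variant histone H2A.Z, had a height of 69 with 10 events. The cytoplasmic actin messenger RNAs ACTB and ACTG1 had heights of 82 and 80 with 8 and 15 events. Also in this leading set were LDHB, a lactate dehydrogenase subunit (66, 13 events), EEF2, the elongation factor that moves the ribosome along (63, 6 events), and MTRNR2L2 (76, 18 events). Histone, actin and MTRNR2L copies are nearly identical to each other, and MTRNR2L genes are nuclear copies of mitochondrial ribosomal RNA, so the assignment of reads to 1 copy is uncertain.

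The FTO leaders outside introns were largely other genes. GAPDH, the glycolytic glyceraldehyde-3-phosphate dehydrogenase, had 132 conversion events at a TRMT10A site of height 32 (chr12:6537144-6537165, plus strand). MTRNR2L10 had 76 events (height 44) and MYBL2, a transcription factor of the cell cycle, 44 events (height 26). The RNA helicases DDX17 and DDX3X had 32 and 21 events at heights of 47 and 21. RAN, the GTPase of nuclear transport, had 22 events (height 26), and RPL31, a large subunit ribosomal protein, 20 (height 40). MALAT1, a nuclear long noncoding RNA, had 19 (height 36). Most members were far weaker: 432 of the 592 shared clusters outside introns (73.0%) had 2 to 4 events.

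Most genes had a single shared cluster. One was found in 374 genes, 2 in 70, 3 in 28 and 4 or more in 16, so 114 genes held 300 of the 672 clusters. CLTC, the clathrin heavy chain, and SRRM2, a splicing scaffold, each had 7. All 14 lay in coding exons, at heights of 16 to 35 in CLTC and 19 to 32 in SRRM2. PKM, pyruvate kinase, had 6, spread from the 5′ UTR to the 3′ UTR, with heights of 25 to 55. The chaperone messenger RNAs HSP90AA1 and HSP90AB1 had 6 and 5, with heights of 19 to 51 and 23 to 51. PARP1, the nuclear poly-ADP-ribose polymerase, and PLS3, an actin-bundling plastin, had 5 each, all in coding exons. Those with 4 were ACTB, MTRNR2L2, RPS6, GNAS, EIF4G1, MALAT1, FLNA and SCD, and the 4 of SCD, the stearoyl-CoA desaturase, included 3 in its 3′ UTR at heights of 16 to 19.

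Genes with more FTO clusters more often held a shared one. Each further cluster is another chance of sharing, so a rise with the number of clusters is built into this count. Of the 1435 genes with sites of both proteins, 487 had a shared cluster (33.9%). The share was 18.7% in genes with 1 FTO cluster, 32.4% with 2 to 4, 61.0% with 5 to 9 and 68.9% with 10 or more. By type, 466 of the 488 genes were protein-coding, 10 long noncoding and 12 pseudogenes, and 95.8% of the shared clusters lay in the protein-coding ones. MALAT1 had 4 shared clusters of its 80, and NEAT1, the architectural RNA of paraspeckles, 1 of its 15. The pseudogenes included ACTG1P4, RPSAP9 and RPL13AP5, whose sequences resemble those of their parent genes.

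Gene lists were compared by the share of their FTO clusters that were shared, against 7.78% over all FTO clusters. Members of the lists of translation come first. Of 45 large subunit ribosomal protein genes with an FTO cluster, 18 had a shared one, and 23 of 177 clusters were shared (12.99%, 8.82 to 18.7). RPL28 led them with a height of 60 and 9 events, before RPL24 at 56 with 3 and RPLP2 at 54 with 6. Of 31 genes of the small subunit, RACK1 included, 14 had one, and 23 of 136 clusters were shared (16.9%, 11.5 to 24.1). RPS6 had 4, with heights of 34 to 61. Among initiation factors 11 of 28 genes had a shared cluster and 11.3% of clusters were shared (6.96 to 17.8), with 4 in EIF4G1, the scaffold of the cap-binding complex. Of 5 elongation factor genes 3 had one, EEF2, EEF1A1 and EEF1G, and 7.81% of clusters were shared. Aminoacyl-tRNA synthetases, which load amino acids onto transfer RNAs, had one in 4 of 15 genes (YARS1, QARS1, GARS1 and IARS1), with 7 of 50 clusters shared (interval 6.95 to 26.2%).

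Metabolism and protein folding lists also had shares above the whole. Of 13 glycolytic genes with an FTO cluster 9 had a shared one, and 20 of 105 clusters were shared (19.05%, 12.7 to 27.6), among them those of LDHB, PKM, ENO1 and GAPDH. Of 18 chaperone genes 11 had one (13.3%, 9.08 to 18.97), with HSP90AA1 and HSP90AB1 giving 11 of the 24 clusters. Of 21 proteasome genes 7 had one, and 8 of 35 clusters were shared (22.9%, 12.1 to 39.02), led by PSMB5 at a height of 35. All 6 MCM helicase genes, which unwind DNA at replication forks, had sites of both proteins, and 4 had a shared cluster (20.0%, 9.51 to 37.3). Fatty acid and sterol synthesis had one in 7 of 17 genes (13.5%, 7.88 to 22.1), with FASN at 29, ACLY at 25 and SREBF1 at 23 in height.

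Other lists lay near or below the whole. The shares were 10.4% for hnRNP and SR splicing factors (13 of 34 genes), 9.34% for the actin cytoskeleton (8 of 20), 9.33% for the ATF4 response and serine synthesis (5 of 11) and 7.14% for DEAD- and DEAH-box helicases (5 of 18). Histones had 5.06% (3 of 36 genes). The lists of 34 C2H2 zinc finger, 12 tubulin and 20 snoRNP and nucleolar protein genes had 4.17%, 3.13% and 1.82%. In each of these 1 listed gene had a shared cluster: ZNF768, TUBA1C and NPM1. The lists do not hold all genes of their class. Outside them the zinc finger genes ZNF282 and ZNF740 and the snoRNP protein gene SNU13 had 1 shared cluster each. None of the 35 listed tRNA modification enzymes had a shared cluster, with 0 of 23 clusters. This allows a share of up to 14.3% by the upper bound of the interval. The list does not hold all such genes: MTO1, a tRNA modification gene outside it, had 2 shared clusters, both in introns. The m6A machinery had 5 of 66 clusters shared (7.58%, 3.28 to 16.5), in ALKBH5, the other known m6A demethylase, YTHDF2, an m6A reader, HNRNPC and HNRNPA2B1. Of the targets of the study, TRMT10A had 7 TRMT10A sites and no FTO cluster, and FTO had 3 FTO clusters and no TRMT10A site, so neither had a shared cluster. Each protein was overexpressed in the cells of its own CLIP map, and the part of this in these counts was not tested.

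**Figure D4:**
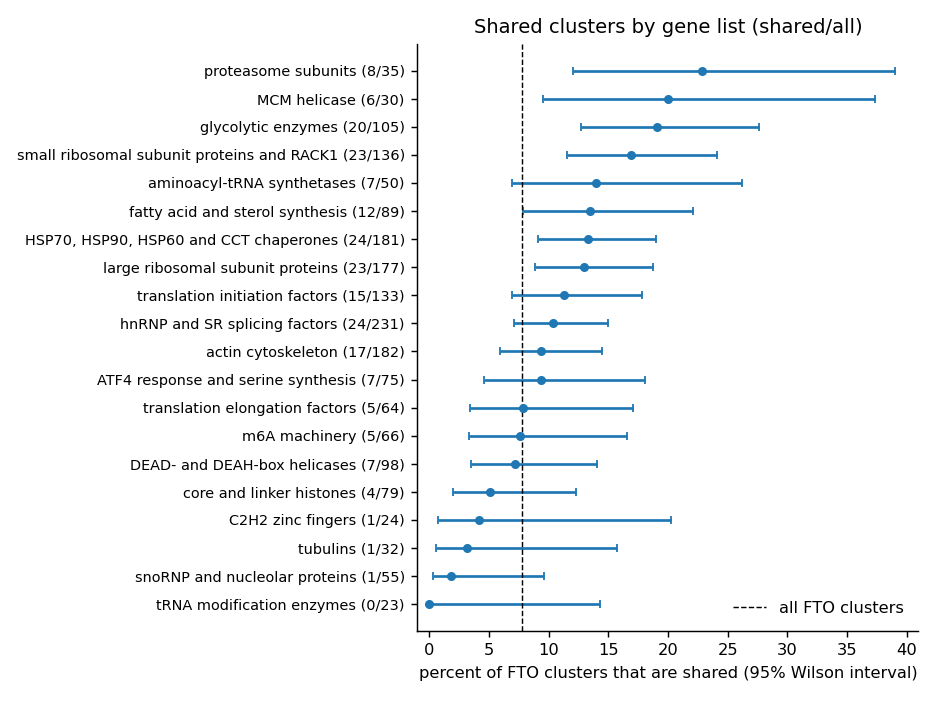
Percent of the FTO clusters of each gene list that are shared (horizontal axis), as points with 95% Wilson intervals, with the number of shared and all clusters beside each name and a dashed line at the 7.78% of all FTO clusters. Proteasome subunits are highest at 22.9% and tRNA modification enzymes lowest at 0 of 23.

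Transfer RNA genes, whose products are the known substrates of TRMT10A, held 5 shared clusters. They lay within introns or exons of host genes in the FTO list and were matched to transfer RNA genes by position in RefSeq. The histidine genes TRH-GTG1-7 and TRH-GTG1-8 had sites of height 105 and 103 with 17 and 14 events, at bases 23 to 25 and 24 to 25 of genes of 72 bases. The glycine genes TRG-GCC2-4 and TRG-GCC3-1 both had sites of height 70, with 19 and 26 events, at bases 27 to 31 and at base 31 of 71. The aspartate gene TRD-GTC2-11 had a height of 58 with 2 events, at bases 48 and 49 of 72. In 4 of the 5 the site thus lay between bases 23 and 31 of the gene, and in each of these 4 the FTO cluster began at base 22 or 23. Bases were counted along the strand of the cluster, because the gene positions used give no strand. Transfer RNA genes of 1 family are near copies, so which copy gave the reads is uncertain.

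The 80 intronic members held most of the conversion events. They carried 83.3% of the events of all shared clusters, with a median of 11.5 events and a median site height of 43.5, against 3 and 22 outside introns. Only 13 shared clusters had 100 events or more, 12 of them intronic, and these 13 held 79.0% of the events of all shared clusters. Other FTO clusters reached 3566 events. The matching shares of events were not computed for them, so no trait of shared clusters is read from these shares. PDE3A, a cyclic nucleotide phosphodiesterase gene, had 2 of the 13 shared clusters, with 4320 and 3948 events, and both met the same TRMT10A site of height 120. HFM1, a meiotic helicase gene, had 1043 events (height 121) and MED12L, a Mediator subunit gene, 434 (height 120). SLCO5A1, a transporter family gene, had the highest TRMT10A site among the shared clusters at 123, a height that sites elsewhere also reached, with 181 events. RYR2, the cardiac calcium release channel gene, had 278 events at a height of 120. USP53, named after its value was seen, had 1294 events at a height of only 20. In ANKRD30BL all 8 shared clusters lay close together in introns, with heights of 26 to 117 and 2 to 342 events. Whether these stretches hold copies of other RNAs was not examined, since no genome sequence was used here.

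Whether shared binding coincided with m6A that changed under TRMT10A depletion was then examined, a readout that the rule did not use. The m6A table lists only the authors' differential peaks, gives no values per replicate, and does not state which siRNA condition is the numerator, so signs are as deposited. Of 672 shared clusters, 45 shared at least 1 base with an exon block of a differential peak (6.70%, 5.04 to 8.84), against 7.25% of all 8633 FTO clusters. The share at shared clusters was thus at the background. Of the 45, 42 lay wholly within a block, and the TRMT10A site did so in 43. The 42 peaks involved comprised 27 positive and 15 negative values in the authors' deposited table. That is 64.3% positive (49.2 to 77.01), beside 59.6% of 354 peaks holding any FTO cluster and 66.5% of all 2023 peaks.

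The changes at shared clusters were near those at FTO clusters as a whole in size. In the authors' deposited table the median absolute log2 fold change of the 42 peaks was 0.40, beside 0.43 for the 354 peaks with an FTO cluster and 0.63 for all peaks. One of the 42 (2.38%) reached an absolute value of 1, beside 5.65% of the 354 peaks with an FTO cluster and 22.7% of all peaks. That one was in ACTN4, an actin crosslinker, with a log2 fold change of 1.30 (adjusted p 6.46e-05) in the authors' deposited table. FLNA, the actin-binding filamin A, followed at 0.95 (adjusted p 7.94e-13) in the authors' deposited table and held 2 shared clusters in the same peak. In the authors' deposited table TMED9 was next at 0.80 (a cargo receptor of the early secretory pathway), before JUN at 0.78, an AP-1 transcription factor, CDC34 at 0.73, a ubiquitin-conjugating enzyme, and ENAH at 0.71, an actin regulator. TPM3, PPP1R9B, RANGAP1, ZNF768 and PQBP1 lay between 0.52 and 0.63 in the authors' deposited table.

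Among the 42 peaks negative values were fewer and smaller, with a median size of 0.34 against 0.47 for positive ones. Of the negative ones 3 of 15 reached 0.5, against 11 of 27 of the positive ones. All 2023 peaks also leaned positive (66.5%), and sizes by sign were not computed for them. No trait of shared clusters is therefore read from these sizes. The authors' deposited table gives -0.74 for TSPYL1, -0.67 for ADIPOR2, an adiponectin receptor, and -0.57 for ADAR, the adenosine deaminase that edits double-stranded RNA. PSMB1 and PSMB5, both subunits of the proteasome core, had -0.48 and -0.42 in the authors' deposited table. Other shared clusters on this list were in HSP90AA1 at -0.31 and SRRM2 at -0.42 in the authors' deposited table. MALAT1 was at 0.26 and EEF2 at 0.37 in the authors' deposited table.

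**Figure D5:**
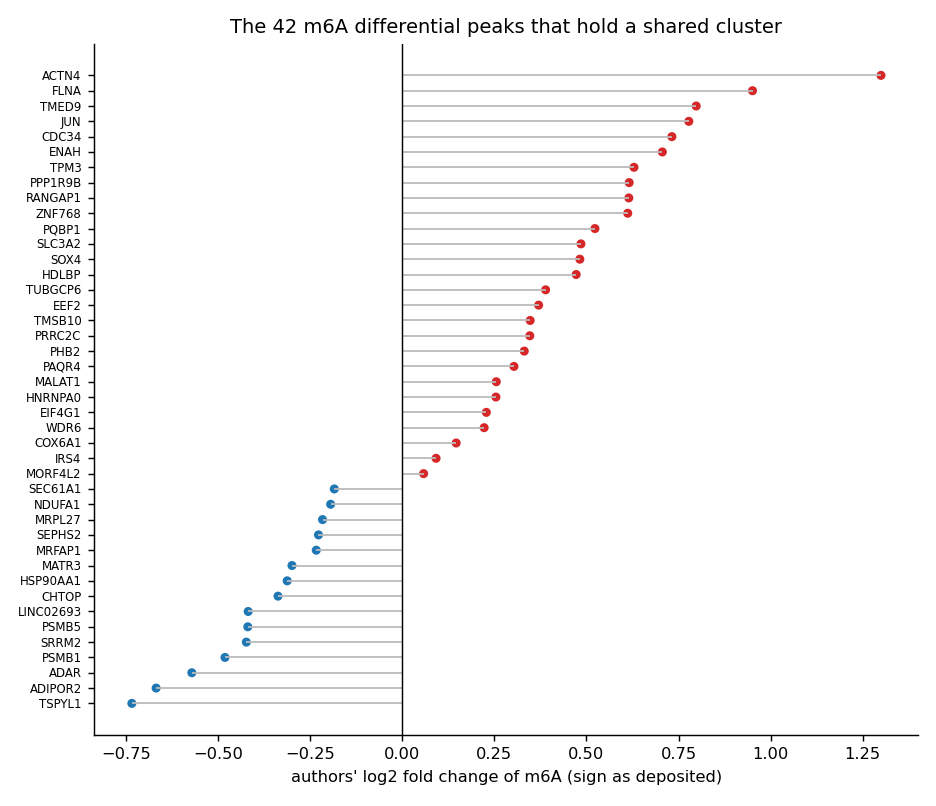
The authors' log2 fold change of m6A, sign as deposited (horizontal axis), for each of the 42 differential peaks that hold a shared cluster, 1 point per peak named by gene, positive in red and negative in blue. There are 27 positive and 15 negative values, from -0.74 for TSPYL1 to 1.30 for ACTN4.

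At the level of genes, those with a shared cluster were close to those with sites of both proteins and none shared. Of 466 protein-coding genes with a shared cluster, 118 had a differential m6A peak anywhere (25.3%, 21.6 to 29.5), beside 21.1% of protein-coding genes with an FTO cluster. Of the 933 with sites of both proteins but none shared, 246 had one (26.4%, 23.6 to 29.3). Among genes whose peaks all had 1 sign in the authors' deposited table, 71.2% (62.2 to 78.8) were positive with a shared cluster and 70.2% (64.1 to 75.7) with both proteins and none shared. The share over all protein-coding genes with an FTO cluster was 62.3%. By list, 6 of the 8 listed actin cytoskeleton genes with a shared cluster had only positive peaks and none had a negative one. Over the whole list of 23 genes 8 had only positive peaks and none a negative one. The list does not hold all such genes. ENAH, the actin regulator named above, lies outside it and has a shared cluster. It had peaks of both signs in the authors' deposited table, so the single sign holds for the listed genes only. None of the 18 large subunit ribosomal protein genes and 1 of the 14 small subunit genes with a shared cluster had a differential peak. Over the whole list of 47 large subunit genes 3 had only negative peaks. Over the 33 of the small subunit list 1 had only positive and 1 only negative peaks. Both proteasome genes with a peak, of the 7 with a shared cluster, had only negative ones, while over the whole list of 31 genes 4 had only positive and 3 only negative peaks.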

How the data were processed

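The data are 3 deposited lists of 12 HEK293T libraries. Per the file headers, the TRMT10A table lists sites from pooled unique tags of the 3 libraries, annotated with HOMER, and its peak height is the score of the authors. Per the file headers, the FTO table gives a count of conversion events for each cluster. The authors' m6A table gives, per the file headers, a linear fold (the ratio of pulldown over input), a log2 fold change of the difference, and log10 p-values, used as scores. The distance to the nearest start in the TRMT10A table was not used. The submitters' processing notes name hg38 and DESeq2 without a role. The aligner and the peak callers are not given in the sources used here. No column of per-sample values exists in the lists, and 2 FTO rows were cut at the edge of the table, so their last clusters are missing. One of these rows, that of XIST, which has a shared cluster, lists 146 of its 275 stated clusters. The 2 clusters without a count were left out.

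Overlaps needed at least 1 base on the same strand. An m6A peak was met when an FTO cluster shared at least 1 base with one of its exon blocks. Coordinates are hg38, counted from 1. Gene names came from RefSeq (GRCh38.p14), and all 488 genes matched. No test was made, because no list holds values per replicate and because the overlap chose the members. Shares carry 95% Wilson intervals. The overlap code was tested on simulated intervals. Position along the protein and codons could not be computed without a genome. The tools were pandas 2.3.3, statsmodels 0.14.6 for the intervals and matplotlib 3.10.9, run in Python 3.11.15.

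The members and gene lists were chosen with earlier results of these data known. Named genes were the 10 with the highest TRMT10A height and the 10 with the most conversion events outside introns, and those with the most shared clusters. The 15 with the largest absolute m6A change, up to 4 per list by height, TRMT10A and FTO, and the 5 highest intronic clusters completed them. Genes named outside this rule (USP53, NEAT1, transfer RNA genes, pseudogenes, PHPT1, ATP5MG and the PSMB1, PSMB5, HSP90AA1, SRRM2, MALAT1 and EEF2 m6A values where smaller) were chosen after their values were seen. The same holds for MTO1, SNU13, ZNF282, ZNF740 and XIST. Some genes that the rule drew are not reported here.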

Additional observations from a re-analysis of the deposited data

How the results depend on the processing

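A count was taken as moved when it differed by more than 1.5 times, and a share when it left the 95% interval of the reported one. Of 56 values under 11 alternatives for 6 results, 46 stayed and 10 moved. Asking for at least 10 shared bases left 24 clusters in 23 genes, with 45.8% in coding exons and 100.0% of 2 m6A peaks positive, since TRMT10A sites are a few bases wide. Allowing a gap of up to 20 bases gave 1244 clusters. Keeping FTO clusters with 5 or more conversion events left 211 clusters in 175 genes, with 55.5% in coding exons. The coding share of the other clusters at that cut was not computed, so 55.5% has no like value beside it. Leaving out intronic clusters raised the coding share to 76.7%. Keeping m6A peaks past 0.5 on the absolute log2 scale gave 78.6% positive (11 of 14). The positive share of all peaks at that cut was not computed. The share in 3′ UTRs and the share meeting m6A peaks moved under none of the 9 alternatives that bear on them. Counting FTO starts from 0, chosen after seeing the data, gave 653 clusters, and leaving out positions of small RNA genes, also chosen then, 667. No paired analysis was possible because the lists hold no values per replicate, and for the same reason no replicate could be left out. FTO binding rests on 1 library, read depth is unknown, and RNA levels were not analysed.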
